A study of Mus musculus with 4 samples.

Results

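The Polycomb repressive complex subunits examined here are 10 genes, taken by name from the 24594 genes of the count table. They are Ezh2, Ezh1, Eed and Suz12 (PRC2 core), Jarid2, Mtf2 and Phf19 (PRC2 accessory subunits), and Rnf2, Ring1 and Pcgf6 (PRC1 core). All 10 passed the filter on low counts. Their levels came from poly(A) RNA-seq of mouse embryonic stem cells (mESCs) of a 129S6/SvEvTac line, with 2 libraries from untreated wild-type (WT) cells and 2 from untreated Snf2l knock-out cells. Snf2l, named Smarca1 in the annotation, encodes the chromatin remodeler SNF2L, 1 of the ISWI ATPases. By the study's methods the lines were grown on gelatin in serum with leukemia inhibitory factor, and mutants were single clones made with CRISPR-Cas9, so genotype and clone cannot be told apart. The study describes its replicates as independent and biological, without saying for these libraries whether each came from its own culture, and the p-values measure the spread between these libraries.

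Polycomb complexes keep developmental genes silent. PRC2 methylates histone H3 at lysine K27 through EZH2 or EZH1, held together by SUZ12 and by EED, which binds the mark that the enzyme leaves. PRC1 ubiquitinates histone H2A through RING1B (gene Rnf2) or RING1A (gene Ring1), each paired with 1 of several PCGF proteins. In mESCs both complexes mark promoters of lineage regulators that remain inducible.

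Depth was similar in the 4 libraries, with totals of 13771642 and 15353956 counts for WT and of 15608803 and 15290806 counts for the knockout, and scaling factors lay between 0.989 and 1.01. Smarca1 had 620 and 626 counts in the WT libraries against 37 and 31 in the mutant, as the labels give it (log2 fold change -4.30, SE 0.159, edgeR adjusted p = 2.65e-10). The 754 tested genes of chromosome 8 had a median log2 fold change of -0.51 and the 6 of chromosome Y had one of -4.57, relative to all genes. None of the 10 subunit genes lies on these chromosomes. Smarca5, which encodes the other ISWI ATPase SNF2H, lies on chromosome 8. In the knockout Smarca5 was at 0.644 of the WT level (log2 fold change -0.63, SE 0.085, edgeR adjusted p = 2.9e-04).

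The promoter windows of the paralog pairs Ezh2 and Ezh1, and Rnf2 and Ring1, are shown because the levels of the genes in each pair lay far apart. Each window is RefSeq sequence of GRCm38.p6, the assembly that mm10 represents, written 5′ to 3′ on the gene's strand. It runs from 250 bases before to 50 bases after a start given for the gene. The Ezh1, Rnf2 and Ring1 windows are set on the outer end of the gene's interval. The Ezh2 window is set on a start inside the Ezh2 interval, which ends at 47595270. Nearly all of the Ezh2 window therefore lies within the gene's own interval. All 4 genes lie on the minus strand. Capitals mark CCAAT, or its reverse complement, in the Ezh2 window.
Ezh2 (chr6:47594981-47595280): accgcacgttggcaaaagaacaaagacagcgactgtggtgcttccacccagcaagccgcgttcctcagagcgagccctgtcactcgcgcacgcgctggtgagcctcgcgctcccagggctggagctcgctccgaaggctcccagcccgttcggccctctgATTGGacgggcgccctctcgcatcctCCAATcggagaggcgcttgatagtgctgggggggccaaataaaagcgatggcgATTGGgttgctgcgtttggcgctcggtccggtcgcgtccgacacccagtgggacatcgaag
Ezh1 (chr11:101226414-101226713): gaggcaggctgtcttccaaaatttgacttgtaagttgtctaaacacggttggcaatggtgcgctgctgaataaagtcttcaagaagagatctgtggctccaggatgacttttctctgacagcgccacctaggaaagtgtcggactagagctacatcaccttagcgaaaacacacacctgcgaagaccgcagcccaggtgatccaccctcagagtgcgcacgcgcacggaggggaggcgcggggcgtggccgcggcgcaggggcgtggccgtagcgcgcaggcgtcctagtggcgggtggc
Rnf2 (chr1:151500942-151501241): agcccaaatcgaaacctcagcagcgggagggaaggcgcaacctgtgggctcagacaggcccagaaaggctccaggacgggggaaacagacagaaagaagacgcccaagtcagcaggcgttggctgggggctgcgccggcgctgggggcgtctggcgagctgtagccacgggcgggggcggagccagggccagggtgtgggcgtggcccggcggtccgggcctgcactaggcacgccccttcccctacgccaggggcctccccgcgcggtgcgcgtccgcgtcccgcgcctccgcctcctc
Ring1 (chr17:34024631-34024930): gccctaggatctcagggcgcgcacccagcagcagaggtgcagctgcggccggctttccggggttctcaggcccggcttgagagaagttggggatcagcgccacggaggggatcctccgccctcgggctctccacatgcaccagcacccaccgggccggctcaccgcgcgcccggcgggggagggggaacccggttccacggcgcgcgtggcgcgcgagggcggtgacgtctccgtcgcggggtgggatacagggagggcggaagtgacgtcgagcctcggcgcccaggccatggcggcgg
CpG dinucleotides numbered 31 in the Ezh2 window, 23 in Ezh1, 30 in Rnf2 and 37 in Ring1, against a median of 7 over 32851 mouse promoter windows of this length. GC content was 64.3%, 59.3%, 72.7% and 74.0% in the same order, against a median of 52.7%. CCAAT occurred in the Ezh2 window at 90, 64 and 11 bases before the start on which that window is set, counting on either strand. These matches lie inside the Ezh2 interval. CCAAT did not occur in the Ezh1, Rnf2 or Ring1 window, which are set on the outer end of the gene, so the windows compared are not alike. Over all 10 genes, which have 12 windows because Mtf2 and Jarid2 each have 2, CCAAT was found for Ezh2, Eed, Suz12, Jarid2 and Mtf2, and 37.4% of all windows hold it. For Mtf2 it was only in the window from 108077915 to 108078214, inside the gene. The window from 108065424 to 108065723, at the outer end of Mtf2, held none. A gene with 2 windows was listed if either held the motif, while the percentages are per window. GGGGCGGGG, a motif of SP and KLF factors, was found on either strand for Jarid2, Mtf2, Phf19 and Pcgf6 and in 11.4% of all windows. TATAAA was found for Jarid2 (13.6% of all windows) and AAGATGGC, a YY1 motif, for Phf19 (2.75%). TTCCCGCC (2.19%), CCGGAAG (8.86%), GCGCATGC (2.71%) and TGACGTCA (1.79%) were found for no member. A match describes the letters of a window and is not a bound site.

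The levels of the subunits in WT cells spanned a wide range. Levels were compared between genes as CPM, the counts scaled by library size, per kb of the gene length given in the table. Eed was the highest at 100.7 ± 2.71 CPM per kb (SD, n = 2, as for all WT levels here). Jarid2 followed at 85.7 ± 3.21, Mtf2 at 79.5 ± 5.24, Suz12 at 69.1 ± 3.74, Rnf2 at 50 ± 2.32 and Ezh2 at 37.9 ± 1.79 CPM per kb. Pcgf6 lay at 20.8 ± 0.578 CPM per kb. Ezh1, Ring1 and Phf19 lay far lower, at 5.18 ± 0.012, 3.44 ± 0.194 and 3.09 ± 0.129 CPM per kb. Among the genes tested, these levels correspond to percentiles from 37.1 (Phf19) to 96.9 (Eed). Of neighbours in this order, Jarid2 and Mtf2 had overlapping ranges over the 4 libraries, and the other neighbours lay apart in all 4. The length in the table covers all exons of a gene. With the length of the principal GENCODE transcript instead, Ezh2 moved from place 6 to place 4 with 90.8 ± 4.29 CPM per kb, above Suz12 with 78.1 ± 4.23, and Suz12 and Rnf2 were then the neighbours that overlapped.

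**Figure D1:**
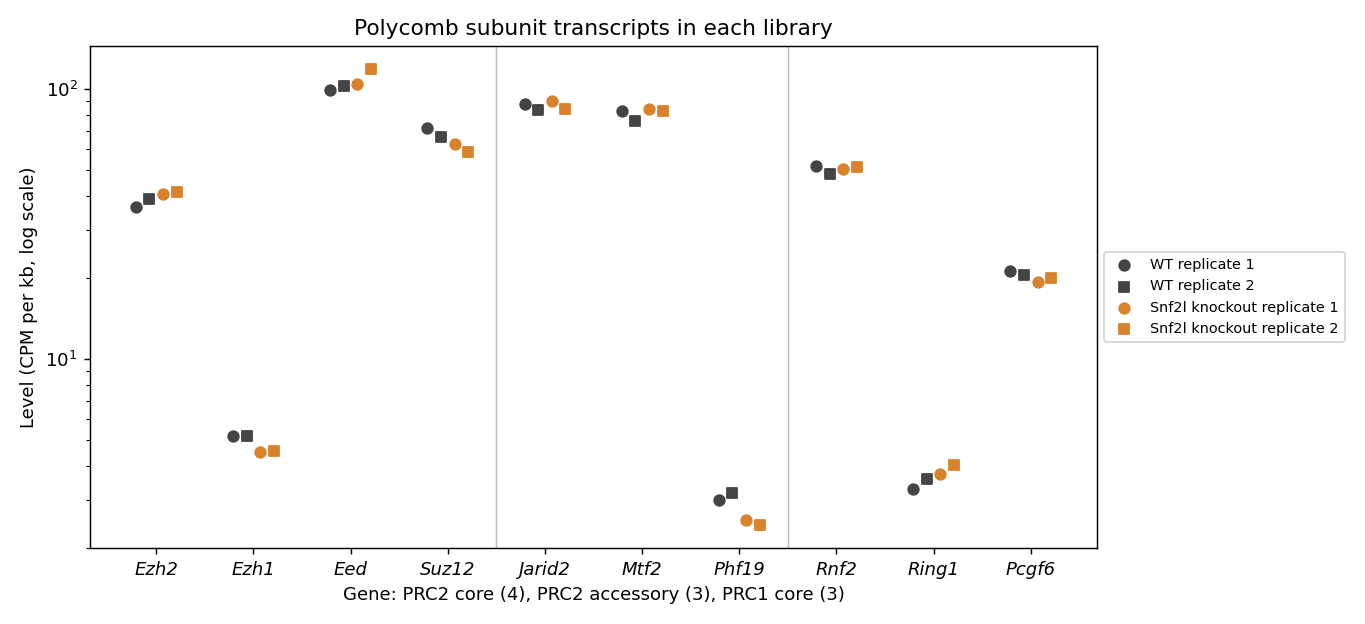
Level of each Polycomb subunit gene in each of the 4 libraries, in CPM per kb of gene length on a log axis, with WT in grey and the Snf2l knockout in orange and vertical lines between the PRC2 core, PRC2 accessory and PRC1 core genes. Ezh1, Phf19 and Ring1 lie at 5.19 CPM per kb or below in every library, and the other 7 genes lie well above them.

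The knockout was then compared with WT for each subunit. Of the 10 genes, 0 had an adjusted p-value under 0.05 in edgeR's quasi-likelihood test, against 9.21% of the 13840 genes tested, and DESeq2 also called 0. Likewise 0 met the study's threshold for a differentially expressed gene (DEG), an adjusted p-value under 0.01 with a change over 2-fold, against 0.990% of all genes. An unadjusted p-value under 0.05 was reached by 2, Suz12 and Phf19, against 22.1% of all genes. The median log2 fold change of the 10 genes was 0.024, with a range from -0.32 to 0.17, and that of all genes was 0.0002. For 9 of the 10 genes the 95% interval lay within 1.5-fold in either direction, and for Phf19 it reached down to 0.658 of the WT level.

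The catalytic subunits of PRC2 lay on opposite sides of their WT levels. Ezh2 (chromosome 6, 47530274 to 47595270), the main H3K27 methyltransferase of dividing cells, was at 245 and 262 CPM in WT and at 273 and 278 CPM in the knockout. Both knockout libraries were higher than both WT libraries, by little (log2 fold change 0.12, 95% interval -0.06 to 0.30, adjusted p = 0.451). Ezh1 (chromosome 11, 101191115 to 101226463), the paralog with weaker catalytic activity, was at 38.5 and 38.6 CPM in WT and at 33.5 and 33.9 CPM in the knockout. Here both knockout libraries were lower (log2 fold change -0.19, 95% interval -0.41 to 0.03, adjusted p = 0.291). Chromosome 11 as a whole had a median log2 fold change of -0.087, and its part in this difference was not tested.

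For both partner subunits the genotypes did not overlap, as was so for 50.5% of all genes tested. Neither was called in edgeR's test with genotype as the only term. Eed (chromosome 7, 89954654 to 89980976), the reader of H3K27 methylation, was at 378 and 393 CPM in WT and at 401 and 455 CPM in the knockout. Its libraries were higher in the knockout, with replicate 2 standing above replicate 1 (log2 fold change 0.15, 95% interval -0.04 to 0.34, adjusted p = 0.351). Suz12 (chromosome 11, 79993106 to 80034123), the scaffold of the complex, was at 355 and 329 CPM in WT and at 308 and 288 CPM in the knockout. Both knockout libraries were lower (log2 fold change -0.20, 95% interval -0.38 to -0.01, unadjusted p = 0.0395 and adjusted p = 0.198 in edgeR), again on chromosome 11.

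The accessory subunits steer PRC2 to chromatin. Jarid2 (chromosome 13, 44730774 to 44921643), a DNA-binding subunit of the PRC2.2 form, was at 849 and 806 CPM in WT and at 870 and 813 CPM in the knockout, so the genotypes overlapped (log2 fold change 0.02, 95% interval -0.15 to 0.20, adjusted p = 0.902). Mtf2 (chromosome 5, 108065660 to 108109219), a Polycomb-like protein of the PRC2.1 form that binds CpG-rich DNA, was at 474 and 432 CPM in WT and at 479 and 474 CPM in the knockout. These ranges also overlapped (log2 fold change 0.07, 95% interval -0.11 to 0.25, adjusted p = 0.678). Phf19 (chromosome 2, 34893752 to 34914353), another Polycomb-like protein, was at 15.1 and 16.1 CPM in WT and at 12.8 and 12.2 CPM in the knockout, from 187 to 246 counts a library. It had the largest difference of the 10 genes, with both knockout libraries lower (log2 fold change -0.32, 95% interval -0.60 to -0.04, unadjusted p = 0.0261 and adjusted p = 0.154 in edgeR).

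Among the PRC1 genes, Rnf2 (chromosome 1, 151469398 to 151500991) was at 213 and 200 CPM in WT and at 208 and 212 CPM in the knockout. The genotypes overlapped (log2 fold change 0.02, 95% interval -0.16 to 0.21, adjusted p = 0.910). Chromosome 1 as a whole had a median log2 fold change of 0.090, and its part in the value of Rnf2 was not tested. The Rnf2 paralog Ring1 (chromosome 17, 34020792 to 34024680) was at 10.7 and 11.6 CPM in WT and at 12.1 and 13.1 CPM in the knockout, from 146 to 202 counts a library. Both knockout libraries were slightly higher (log2 fold change 0.17, 95% interval -0.12 to 0.47, adjusted p = 0.514). Pcgf6 (chromosome 19, 47033617 to 47050939), which defines the variant complex PRC1.6, was at 107 and 103 CPM in WT and at 96.8 and 100.2 CPM in the knockout. Both knockout libraries were lower (log2 fold change -0.09, 95% interval -0.28 to 0.11, adjusted p = 0.636). In all, 7 of the 10 genes had genotypes that did not overlap, 3 higher and 4 lower in the knockout, against 50.5% of all genes tested.

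Some of these counts can hold reads of a neighbour. The labels name a stranded kit and the methods a kit that does not mark strand, and whether counting used strand is not given in the sources used here. In GENCODE, exons of Mtf2 and Tmed5 overlap on opposite strands by 395 bp, those of Rnf2 and Trmt1l by 158 bp, and those of Eed and E230029C05Rik by 261 bp. Exons of Ezh2 and Suz12 overlap by 174 and 178 bp with antisense RNAs that the table does not count.

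**Figure D2:**
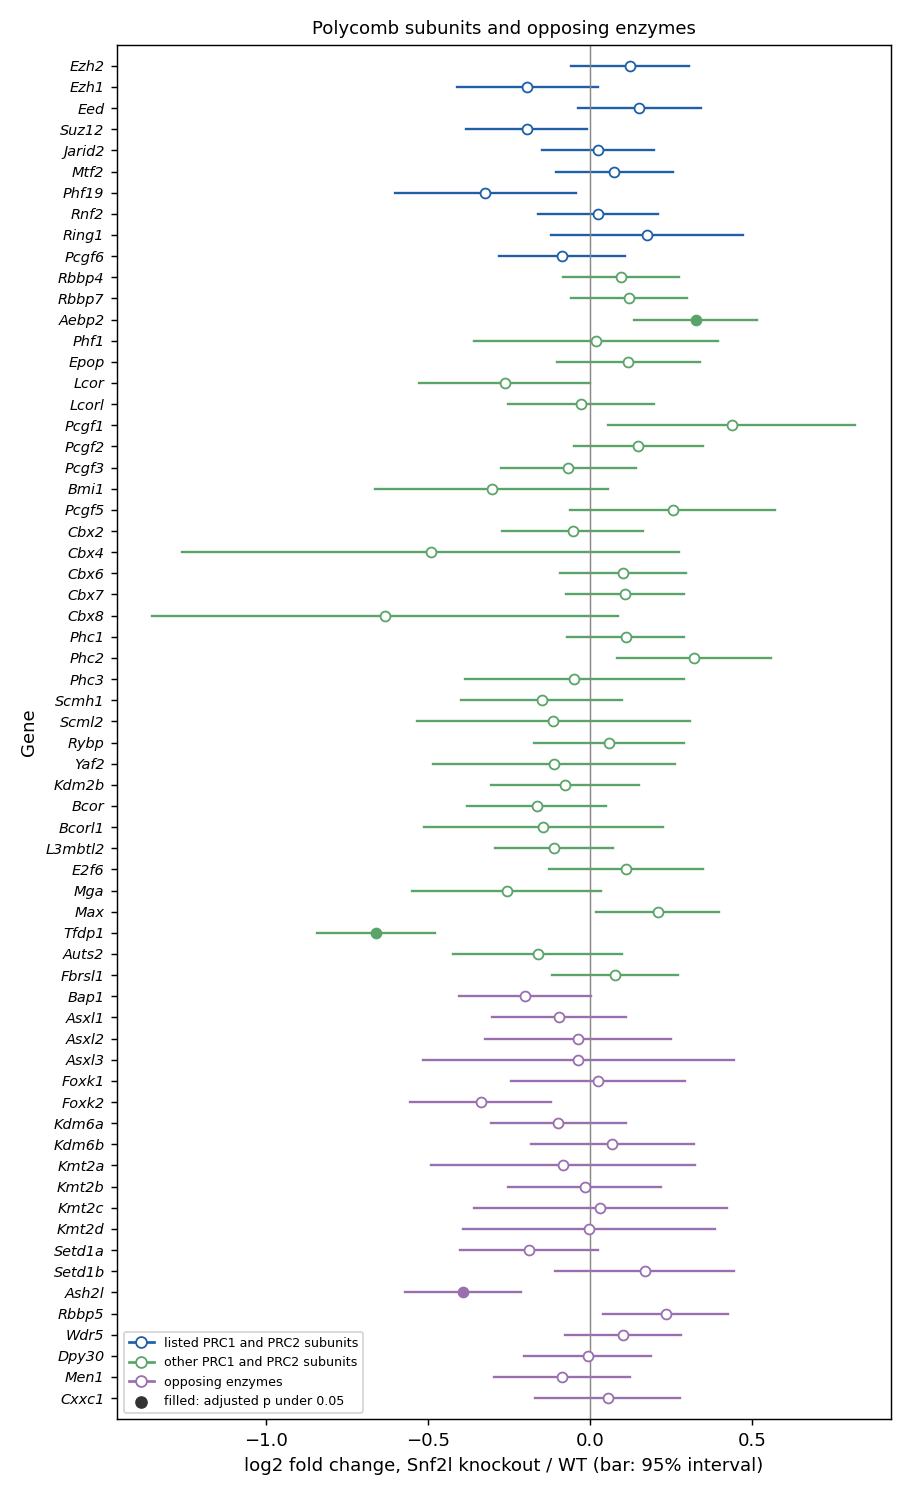
Log2 fold change between Snf2l knockout and WT libraries for the 10 listed subunits (blue), 34 other PRC1 and PRC2 subunits (green) and 20 opposing enzymes (purple), where bars are 95% intervals and filled points have an adjusted p-value under 0.05. The 10 listed subunits lie between -0.32 and 0.17, and Aebp2, Tfdp1 and Ash2l are the filled points.

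Subunits that take the same place in a complex were compared as a ratio within each library, which does not depend on scaling, and 3 such ratios were computed. The Ezh2 to Ezh1 ratio of levels per kb was 7.08 and 7.55 in the WT libraries and 9.07 and 9.14 in the knockout libraries. It averaged 7.31 ± 0.328 and 9.11 ± 0.049 (SD, n = 2 each), a 1.25-fold difference with no overlap between genotypes (exact permutation test, two-sided, p = 0.333, the smallest p that 2 against 2 libraries allow). The Rnf2 to Ring1 ratio was 15.6 and 13.5 for WT and 13.5 and 12.7 for the knockout, with means of 14.6 ± 1.49 and 13.1 ± 0.594 that differed by about the SD of the WT pair (exact permutation p = 0.333). The Mtf2 to Phf19 ratio, chosen after the values were seen, was 27.7 and 23.8 for WT and 33.3 and 34.4 for the knockout, which is 1.31-fold higher in the mean. The size of each ratio depends on the transcript length assumed, and the factor between genotypes does not.

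The same levels were expressed as shares of each family's summed level per kb, a description chosen after the values were seen. Ezh2 made up 88.0% ± 0.475 of the EZH transcripts in WT and 90.1% ± 0.048 in the knockout (SD, n = 2 each). Rnf2 made up 93.5% ± 0.619 of the RING transcripts in WT and 92.9% ± 0.300 in the knockout, with WT replicate 2 at 93.1% and knockout replicate 1 also at 93.1%. Mtf2 held 94.5% of the Polycomb-like transcripts in WT and 95.5% in the knockout, Phf19 held 3.69% and 2.82%, and Phf1 held 1.78% and 1.73%. Jarid2 and Aebp2 are partners in PRC2.2 rather than alternatives, so their shares only set their levels side by side. Of this pair, Jarid2 held 84.3% ± 0.180 in WT and 81.4% ± 0.702 in the knockout, and Aebp2 held the remainder. With principal transcript lengths Jarid2 held 79.1% and 75.4%. Pcgf6 held 37.3% ± 0.459 of the 6 PCGF transcripts in WT and 34.3% ± 0.724 in the knockout, next to Pcgf2 with 36.8% and 39.8%. With principal transcript lengths Pcgf6 held 49.8% and 46.1%. Cbx7 was the most abundant of the CBX chromodomain genes of canonical PRC1, with 56.6% in WT and 58.1% in the knockout.

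**Figure D3:**
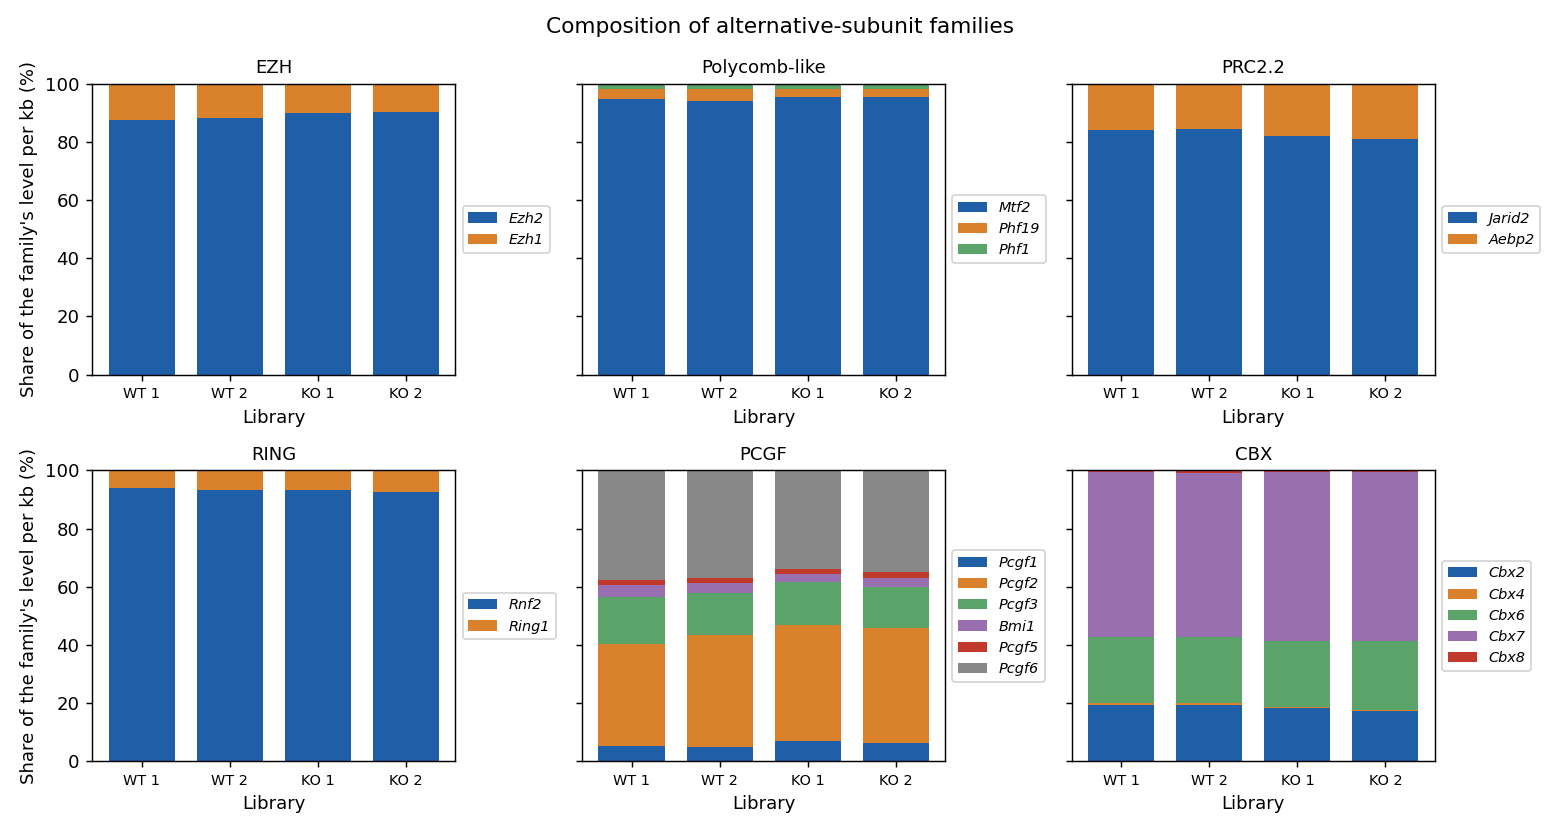
Share of each gene in its group's summed level per kb (%), with 1 panel for each of 6 groups of subunits. Each library has 1 stacked bar (WT 1, WT 2, KO 1 and KO 2, where KO is the Snf2l knockout). The PRC2.2 panel holds partners in the same complex, and the other panels hold alternative subunits. With the gene lengths given in the table, Ezh2, Mtf2, Jarid2 and Rnf2 hold over 80% of their groups in every library, and the PCGF and CBX groups are mixed.

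The remaining subunits of the complexes were examined from a list of 34 genes, all of which passed the filter. Calls at an adjusted p-value under 0.05 numbered 2 (5.88%, against 9.21% of all genes), and the median log2 fold change was -0.04. Aebp2 (chromosome 6, 140622454 to 140678472), the zinc finger partner of JARID2 in PRC2.2, was at 141 and 131 CPM in WT and at 171 and 170 CPM in the knockout. It rose 1.25-fold (log2 fold change 0.32, SE 0.089, edgeR adjusted p = 0.0318), higher in both knockout libraries. This call was narrow, since the adjusted p-value was 0.132 without WT replicate 1, 0.353 without WT replicate 2, 0.0561 with a filter of at least 1 count in any library and 0.0504 with the chromosome 8 shift removed. Tfdp1 (chromosome 8, 13338725 to 13378448), the dimerization partner of E2F proteins and listed here with PRC1.6, was at 292 and 287 CPM in WT and at 180 and 186 CPM in the knockout. It fell to 0.632 of the WT level (log2 fold change -0.66, SE 0.085, edgeR adjusted p = 2.4e-04), on the chromosome whose median was -0.51. With that shift removed, a setting added once the data had been seen, its log2 fold change was -0.16 and its adjusted p-value 0.348. The 5 other PCGF genes, the 5 CBX genes, the 3 Polyhomeotic genes and both RBBP histone chaperones held 0 calls at this threshold.

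Enzymes that oppose Polycomb were taken from a list of 20 genes, which all passed the filter and held 1 call (5%, against 9.21% of all genes tested). The list has 6 genes of the H2A deubiquitinase complex PR-DUB, 2 H3K27 demethylases and 12 COMPASS genes of H3K4 methylation. The demethylase Kdm6a (UTX), shown as an example picked with its values known, stood at 118 and 114 CPM in WT and at 116 and 100.3 CPM in the knockout (log2 fold change -0.10, adjusted p = 0.617). Ash2l (chromosome 8, 25816000 to 25847694), a subunit shared by all COMPASS complexes, was at 772 and 813 CPM in WT and at 573 and 634 CPM in the knockout. It fell to 0.761 of the WT level (log2 fold change -0.39, SE 0.084, edgeR adjusted p = 0.00766). It too lies on chromosome 8, and with the shift removed its log2 fold change was 0.11 and its adjusted p-value 0.513. Without WT replicate 2 the adjusted p-value was 0.117. The median over the list was -0.03.

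To see the genes on which these complexes act, 101 developmental regulators known as Polycomb targets were read from a list of 38 Hox genes and 63 others. Of these, 72 did not pass the filter, with 15 counts or fewer in any library and 3 at 0 in all 4 libraries. Summed over these genes and not scaled by depth, the WT libraries had 128 and 165 counts and the knockout libraries 192 and 187. WT replicate 1 was the smallest library, and no sum over other untested genes was made for comparison. Among the 29 that passed, 4 were called, of which 3 were higher and 1 lower, and the median log2 fold change of the 29 was 0.13. A gene near the filter that passed through its higher genotype had to differ. The share called, the directions and the median of the 29 are therefore not compared with the background. Among 38 Hox genes 5 were tested and 0 were called by edgeR, with 0 also at an unadjusted p-value under 0.05 and each at 61 counts or fewer. Hoxc4, named after its values were seen, had 0 and 3 counts in WT and 14 and 6 in the knockout and failed the filter with all 4 libraries. When WT replicate 2 or knockout replicate 2 was left out, it passed the filter through its knockout counts only. It then had to differ, so its calls in those settings are not read as a result.

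Pax6, a regulator of eye and neural development, was at 20.1 and 20.6 CPM in WT and at 9.43 and 8.52 CPM in the knockout. It fell to 0.442 of the WT level (log2 fold change -1.18, SE 0.134, edgeR adjusted p = 8.8e-05) and was the 1 DEG of the list. Both knockout libraries were lower, and DESeq2 called it too.

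The 3 genes that rose had low counts. Gata6, a transcription factor of primitive endoderm, went from 14 and 16 counts in WT to 31 and 45 in the knockout (log2 fold change 1.23, SE 0.318, edgeR adjusted p = 0.0236). Gata4, its relative in the same lineage, went from 41 and 47 counts in WT to 76 and 83 in the knockout (log2 fold change 0.75, SE 0.200, adjusted p = 0.0276). Hand1, a regulator of trophoblast and heart, went from 18 and 16 counts in WT to 41 and 45 in the knockout (log2 fold change 1.23, SE 0.283, adjusted p = 0.0121). DESeq2 called none of these 3, with adjusted p-values of 0.241, 0.294 and 0.181. Each of them also lost its call when WT replicate 2 was left out (adjusted p = 0.0639, 0.101 and 0.0950). Gata6 and Gata4 lost it too without WT replicate 1 (0.0576 and 0.107) or without knockout replicate 2 (0.199 and 0.0834).

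**Figure D4:**
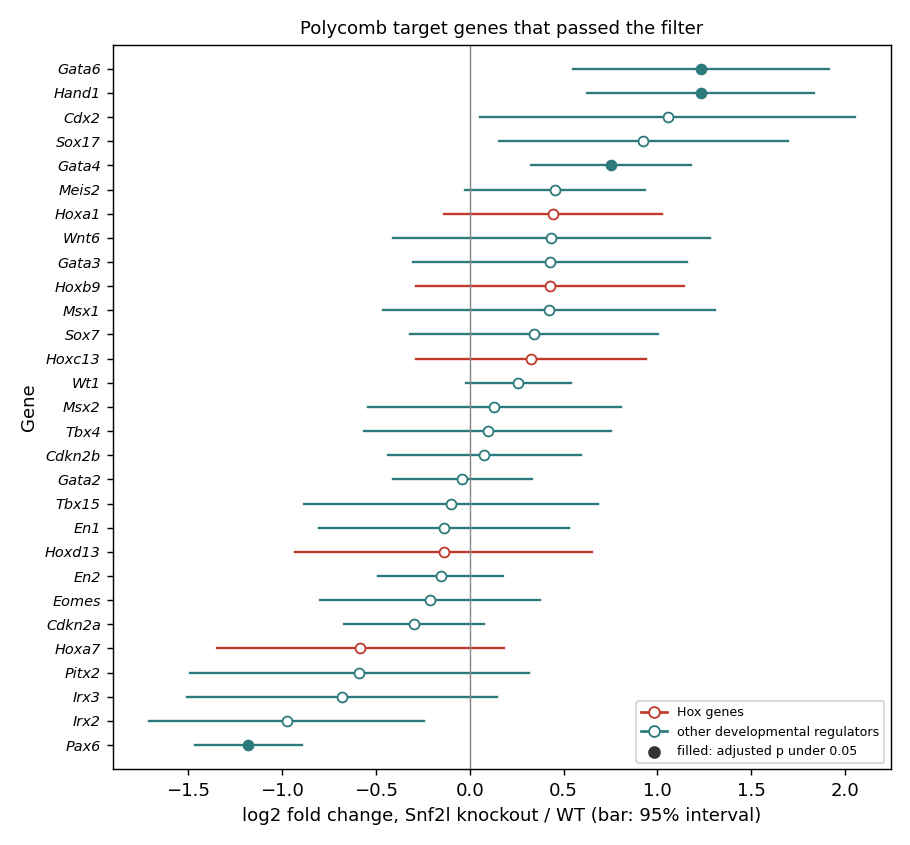
Log2 fold change between Snf2l knockout and WT libraries for the 29 Polycomb target genes that passed the filter, with Hox genes in red and the other regulators in teal, where bars are 95% intervals and filled points have an adjusted p-value under 0.05. Gata6, Hand1 and Gata4 are filled on the higher side, and Pax6 on the lower side.

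Markers of cell types that a culture could hold were read beside these targets. The 10 markers of pluripotent mESCs summed to 4864 and 5213 CPM in WT and to 5207 and 5416 CPM in the knockout, so the labelled cell type was present in all 4 libraries, with Klf4 higher (log2 fold change 0.34) and Zfp42, on chromosome 8, lower (-0.60). The 8 primitive endoderm markers, 4 of which are also in the list of targets, summed to 153 and 128 CPM in WT and to 210 and 184 CPM in the knockout. Most of each sum came from Lama1 and Col4a1. Lama1 was at 80.2 and 56.7 CPM in WT and at 99.7 and 83.4 CPM in the knockout (edgeR adjusted p = 0.0733). Col4a1 was at 55.7 and 54.9 CPM in WT and at 83.7 and 72.9 CPM in the knockout. Of the 8 primitive endoderm markers, 5 rose at an adjusted p-value under 0.05, against 9.21% of all genes called in either direction. They were Gata4, Gata6, Pdgfra (1.33), Dab2 (0.51) and Col4a1 (0.50, on chromosome 8). The 8 fibroblast markers summed to 13.4 and 11.6 CPM in WT and to 25.2 and 26.0 CPM in the knockout. Col1a1 rose (1.41). Col3a1 had 4 and 8 counts in WT and 29 and 42 in the knockout, and passed the filter only through the knockout. Lum was at 0 in all libraries, and Dcn and S100a4 had 5 counts or fewer. The part of such cells in the changes of the targets was not tested, and in bulk RNA more cells of a type cannot be told apart from more RNA per cell.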

How the data were processed

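Poly(A) RNA was sequenced in 4 libraries of mESCs, 2 WT and 2 Snf2l knock-out, described by the labels as 1 batch. The authors aligned reads to mm10 with QuasR and HISAT2 and deposited raw read counts per gene of the UCSC Known Genes, with gene lengths. The submitters' processing notes name bcl2fastq 2.17. Of 24594 Entrez identifiers, 24570 were matched to RefSeq symbols of GRCm38.

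The analysis ran in R 4.3.3. In edgeR 4.0.16, counts were passed through filterByExpr (minimum count 10), TMM scaling, glmQLFit and glmQLFTest in legacy form, with genotype as the only term and Benjamini-Hochberg adjustment over 13840 genes. All tests were two-sided. CPM used the scaled library sizes. Standard errors came from the fold change and the F statistic. The common biological coefficient of variation was 7.45%, and the fit was tested on simulated data. Replicates differed beyond sampling noise (chi-square per degree of freedom 5.17 and 7.35), so no library was a copy. The methods name no normalization, so TMM was assumed.

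Members and lists were chosen with earlier results of these data known. Named genes were Smarca1, all members, other subunits and opposing enzymes with an adjusted p-value under 0.05, and such targets with on average 20 or more counts in their higher genotype. Marker genes were named beside these, and so was Smarca5, with its values known. A listed target is not reported here. Results were recomputed with DESeq2 1.42.0, the edgeR 4 fit, other filters, RLE, upper-quartile or no scaling factors, the replicate number as a block, chromosomes 8 and Y left out, and each library left out in turn. Motifs were searched as exact letters on both strands.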

Additional observations from a re-analysis of the deposited data

How the results depend on the processing

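The count of 0 members called was the same under the other scalings, filters and fits, under DESeq2, at the study's threshold and with each library left out in turn, but not with the replicate block. In that fit 3 members were called, Eed (0.15, adjusted p = 0.0357), Suz12 (-0.20, adjusted p = 0.00445) and Phf19 (-0.32, adjusted p = 0.0330), where 25.1% of all genes were called. The same block gave 7 other subunits and 5 opposing enzymes. Same-numbered libraries had deviations that correlated at 0.196 across genes, and with only 2 pairs this does not show that the numbers mark pairs. Other subunits called were 1 with at least 1 count in any library, 0 with chromosomes 8 and Y left out, 0 with the chromosome 8 shift removed and 0 at the study's threshold, and 1 (without WT replicate 1) to 5 (without knockout replicate 1) with a library left out. Opposing enzymes called were 2 with RLE scaling and 2 with at least 10 counts in every library, 0 with chromosomes 8 and Y left out, 0 with the chromosome 8 shift removed and 0 at the study's threshold, and 0 (without WT replicate 2) to 4 (without knockout replicate 1) with a library left out, where 13.7% of all genes were called without knockout replicate 1. Target genes called were 1 with DESeq2, which gave no adjusted p-value to 71 of them, 1 at the study's threshold, and 2 (without either WT replicate) to 4 with a library left out. With chromosomes 8 and Y left out, Gata4 had an adjusted p-value of 0.0524 and Aebp2 one of 0.0667. The WT ratio of Ezh2 to Ezh1 was 6.57 without length and 9.88 with principal transcripts, and that of Rnf2 to Ring1 was 18.5 and 11.8. Jarid2 changed sign to -0.015 without WT replicate 2 and to -0.023 without knockout replicate 1, and Rnf2 to -0.024 without WT replicate 2; with a library left out, Jarid2 ranged from -0.023 to 0.073 and Rnf2 from -0.024 to 0.073. Ash2l changed sign to 0.113 with the chromosome 8 shift removed. Of the alternative values for single genes, 211 kept direction and call, 18 lost and 3 gained the call, and 4 changed sign. Removing the chromosome 8 shift moved the share of higher genes among all calls from 43.4% to 67.2%, leaving out chromosomes 8 and Y moved it to 64.5%, and upper-quartile scaling to 49.9%. Leaving out chromosomes 8 and Y drops their genes by construction, and the cause of the other changes was not tested. Removal of the shift and the principal lengths were chosen after seeing the data.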

Other observations

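Replicate libraries differed in the same way in both genotypes for 7 of the 10 subunit genes. Ezh2, Ezh1, Eed and Ring1 were higher in replicate 2 than in replicate 1 of WT and of the knockout, and Suz12, Jarid2 and Mtf2 were lower in replicate 2 of both. Over the 13837 tested genes with counts in every library, 64% kept 1 direction in this way. The largest such differences among the members were those of Eed in the knockout (0.18 on the log2 scale) and Mtf2 in WT (-0.14).

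The difference between replicates moved with gene length. Across the 13840 genes tested, the log2 ratio of replicate 2 to replicate 1 had a Spearman rho with length of -0.38 in WT and -0.44 in the knockout, where genes are not independent replicates and the points share their libraries. For genes under 2 kb the median ratio was 0.12 in WT and 0.15 in the knockout, and for genes of at least 10 kb it was -0.17 and -0.22. The long chromatin genes Kmt2a and Mga are given as examples, picked with their values known. Kmt2a, an H3K4 methyltransferase, was at 101 and 65.4 CPM in replicates 1 and 2 of WT and at 95.8 and 60.6 CPM in those of the knockout. Mga, a subunit of PRC1.6, was at 389 and 285 CPM in WT and at 318 and 246 CPM in the knockout. Jarid2, the longest member at 9654 bp, was at 849 and 806 CPM in WT and at 870 and 813 CPM in the knockout. The part of gene length in the differences between genotypes was not tested.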
